A study of Mus musculus with 228 samples.

Results

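The mitochondrial genome was represented by 15 of the 22870 gene rows in the deposited count table, namely every row whose symbol starts with mt-. These were the 13 protein-coding genes and the 2 ribosomal RNA genes of the 37 genes annotated on the mouse mitochondrial chromosome, and the 22 transfer RNA genes were not analysed here. RNA had been taken through a patch pipette from single neurons in acute slices of mice aged 3 to 4 months, 1 month after adeno-associated virus (AAV) had been injected into the hippocampus. Calb1-Cre mice gave ventral hippocampal granule cells (GC) and Nex-Cre mice gave medial CA1 pyramidal neurons (CA1). Cells titled GFP carried a Cre-dependent AAV-EGFP alone, and cells titled Ascl4 received AAV-Ascl4 as well as AAV-EGFP, so all 4 groups expressed EGFP from a virus. Ascl4 is a transcription factor of the basic helix-loop-helix family. Cell type cannot be told apart from the Cre line, nor Ascl4 from a second virus.

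The table of all sequenced cells held 60 GFP GC, 56 Ascl4 GC, 54 GFP CA1 and 58 Ascl4 CA1 cells. A second deposited table held 47, 51, 46 and 45 of them, which are called kept cells here, and the other 13, 5, 8 and 13 are called absent cells. The text of the series gives 53, 52, 48 and 51 cells past quality control, which differs from the table. No animal was named for any cell, so a group amounts to 1 sample. Groups were not tested against each other, and ranges over cells describe the spread between cells, not between animals.

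The mitochondrial genome is a small circular DNA present in many copies per cell. It encodes subunits of 4 of the respiratory complexes, namely complex I (mt-Nd genes), complex III (mt-Cytb), complex IV (mt-Co genes) and the ATP synthase, complex V (mt-Atp genes), together with the RNAs of the mitochondrial ribosome and transfer RNAs. Both strands are transcribed into long precursor RNAs, from which the single messages are cut at the transfer RNAs, and every other protein of the mitochondrion is encoded in the nucleus. Nuclear chromosomes also carry inserted pieces of mitochondrial DNA, so that a short read of a mitochondrial message can match more than 1 place in the genome. In single cells the share of mitochondrial reads is widely used as a measure of sample quality.

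The kept cells held from 1077532 to 25442664 gene reads and from 4673 to 17883 genes with a read. Medians of markers followed the labels: median Ascl4 was 24.2 and 16.1 counts per 1000000 gene reads (CPM) in GFP GC and GFP CA1 cells, against 11178 and 6716 CPM in Ascl4 GC and Ascl4 CA1 cells, and the summed level of 10 granule cell markers had a median of 4311 CPM in GFP GC against 455 CPM in GFP CA1 cells. Single cells overlapped. Ascl4 went down to 182.9 CPM in Ascl4 GC and 23.2 CPM in Ascl4 CA1 cells, and up to 221.7 CPM in GFP GC and 153.2 CPM in GFP CA1 cells. The granule cell markers ranged from 70.8 to 11447 CPM in GFP GC and from 2.31 to 1696 CPM in GFP CA1 cells. Of the kept cells only 5 had more than 12000 genes, the next highest having 9415. They were Ascl4 GC cells WA117, WA118, WA119 and WA120, named as in the titles, and Ascl4 CA1 cell WA228. All 9 oligodendrocyte markers had reads in each of them, and these markers summed to between 36057 and 115621 CPM, against medians between 43.5 and 406 CPM over the kept cells of the 4 groups. Microglia markers summed to between 2784 and 9779 CPM in these cells (group medians 23.8 to 1023 CPM), and astrocyte markers to between 3599 and 6405 CPM (223.99 to 577 CPM). Their 10 granule cell markers summed to between 247 and 678 CPM, and Ascl4 lay between 182.9 and 3043 CPM. The part of other cells' RNA in the mitochondrial values of these 5 cells was not tested. Median and summed mitochondrial shares, and counts of mitochondrial genes between Ascl4 and GFP groups, are given with and without them. Counts for marker and nuclear gene lists, gene counts for absent against kept cells, and rho over cells were taken with them only.

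Matched against all other GENCODE transcripts of the GRCm38 assembly, the 15 genes differed in how much of their sequence occurs elsewhere. A window of 50 bases was counted as matched where it was found letter for letter in a transcript of another gene. Matches covered 100% of the windows of mt-Co2, 99.9% of mt-Co3, 99.5% of mt-Atp6, 98.8% of mt-Nd4l and 97.99% of mt-Nd3. For mt-Nd4 the share was 62.2% and for mt-Co1 51.1%, while mt-Nd2 had 8.19%, mt-Nd5 7.61% and mt-Rnr2 1.04%. No window of mt-Nd1, mt-Cytb, mt-Nd6, mt-Rnr1 or mt-Atp8 was matched. This depends on the window. With 30 bases 7.35% of the windows of mt-Cytb, 8.37% of mt-Nd6 and 8% of mt-Atp8 were matched, and none of mt-Nd1 or mt-Rnr1. For mt-Co1 the share was 64.8% with 30 bases and 30.8% with 100 bases. The matching transcripts were 15 annotated genes, of which 7 lay side by side within 4663 bases of chromosome 1 (chr1:24611535-24616197, minus strand), all annotated as unprocessed pseudogenes.

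The sequences below are shown because they set a mitochondrial gene beside its nuclear copy, 5′ to 3′ along the gene. Each covers 90 bases, from base 1 of the gene, and capitals mark the base that differs. The places of the genes are chrM:7013-7102 on the plus strand for mt-Co2 and chr1:24615476-24615565 on the minus strand for Gm28661, chrM:9459-9548 on the plus strand for mt-Nd3 and chr1:24613030-24613119 on the minus strand for Gm28438.
mt-Co2: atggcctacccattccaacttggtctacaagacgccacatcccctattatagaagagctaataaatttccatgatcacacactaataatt
Gm28661: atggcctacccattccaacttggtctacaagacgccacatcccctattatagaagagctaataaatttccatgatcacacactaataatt
mt-Nd3: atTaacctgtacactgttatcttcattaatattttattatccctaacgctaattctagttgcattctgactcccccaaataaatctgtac
Gm28438: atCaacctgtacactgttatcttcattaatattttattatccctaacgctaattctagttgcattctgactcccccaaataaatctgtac
All 681 aligned bases of mt-Co2 were identical in Gm28661, and 344 of 345 aligned bases of mt-Nd3 were identical in Gm28438, the exception being T3C, counted from base 1 of the mitochondrial gene with its base first. Identity was also complete over 678 bases between mt-Atp6 and Gm10925, 783 bases between mt-Co3 and Gm28437, 294 bases between mt-Nd4l and Gm10222, and the opening 876 bases of mt-Nd4 and Gm28439.

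Within mt-Co1 the copy began inside the gene. The 90 bases below span that point at chrM:6345-6434 on the plus strand, and capitals mark the part, from base 1063 of the gene, that aligned with Gm29216.
mt-Co1: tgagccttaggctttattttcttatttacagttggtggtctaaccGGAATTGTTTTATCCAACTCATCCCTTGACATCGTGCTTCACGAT
From that base to the end, 482 of 483 bases were identical to Gm29216. A second copy, Gm13340 on chromosome 2, aligned along the whole gene with 97.6% identity. For contrast, the opening 90 bases of mt-Cytb, at chrM:14145-14234 on the plus strand, belong to a gene without a matched window of 50 bases.
mt-Cytb: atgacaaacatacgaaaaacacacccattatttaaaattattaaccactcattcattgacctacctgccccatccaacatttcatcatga
The mitochondrial genes also overlap each other. The annotated end of mt-Atp8 shares 43 bases with mt-Atp6, shown here in capitals at the end of mt-Atp8 (chrM:7912-7969, plus strand).
mt-Atp8: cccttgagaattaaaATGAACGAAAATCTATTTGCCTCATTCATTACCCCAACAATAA
Further overlaps were 7 bases between mt-Nd4l and mt-Nd4, 1 base between mt-Atp6 and mt-Co3, and 14 bases between mt-Nd5 and mt-Nd6, which lie on opposite strands. Of the 15 genes, mt-Nd6 was the one annotated on the minus strand. The counting of reads that fit more than 1 gene or place, the use of strand and the read length were not given in the sources used here.

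Reads fell on these genes very unevenly. Summed over the kept cells and divided by gene length, mt-Cytb had 3739 CPM per kb, mt-Nd1 2476 and mt-Co1 2023. A middle tier followed with mt-Rnr2 at 833 CPM per kb, mt-Nd2 at 752, mt-Nd4 at 750, mt-Nd5 at 487, mt-Nd6 at 477 and mt-Rnr1 at 332. The remaining 6 genes were far lower, between mt-Nd3 at 29.8 CPM per kb and mt-Nd4l at 6.48, with mt-Co3 at 17.5, mt-Atp8 at 13.1, mt-Atp6 at 11.1 and mt-Co2 at 7.79. The 3 subunits of cytochrome c oxidase thus differed widely in length-scaled level although they belong to 1 enzyme.

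The low tier was made up of the 5 genes with at least 95% of windows matched and of mt-Atp8. Those 5 genes held 37816 of the 13993643 mitochondrial reads of the kept cells, or 0.270%, and the 9 genes outside the low tier held 99.7%. Across the 15 genes Spearman's rho between CPM per kb and the matched share was -0.58, and without mt-Atp8 it was -0.71; the genes share libraries, so this is a description. More than 50% of the windows of mt-Nd4 and mt-Co1 were matched, while mt-Nd4 was in the middle tier and mt-Co1 above it. These genes had 502 and 731 windows without a match, against 0 to 6 in each of the 5 genes. The low gene without matched windows of 50 bases, mt-Atp8, is flanked by genes that have them. By gene order, its counterpart place in the chromosome 1 cluster is the stretch between Gm10925 and Gm28661 (chr1:24614652-24614884), in which no copy was annotated. The sequence of that stretch was not matched, and the cause of the low level of mt-Atp8 or of the other low genes was not tested. Of the 15 copies, only Gm20594 and Gm4076 had rows in the count table, with 886 and 1379 reads over all cells of the table, and the other 13 had none, so reads at those copies were not analysed here.

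**Figure D1:**
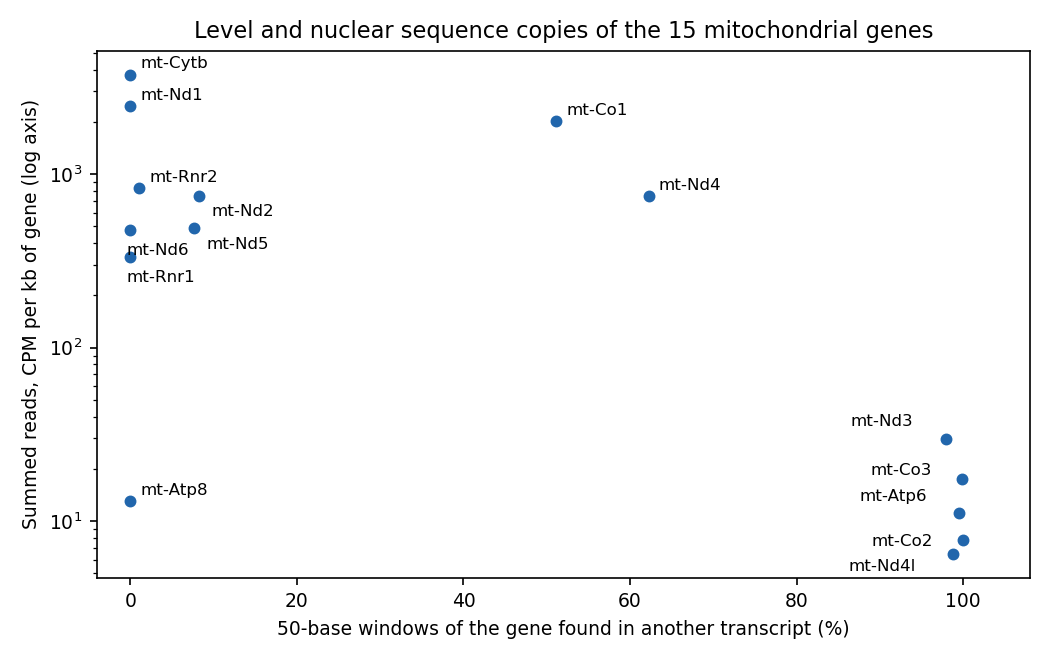
Level of each of the 15 mitochondrial genes (summed reads of the kept cells, CPM per kb of gene, log axis) against the share of its 50-base windows found in another transcript (percent). The 5 genes at 97.99% to 100% lie between 6.48 and 29.8 CPM per kb, with mt-Atp8 at a matched share of 0 and 13.1 CPM per kb.

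Mitochondrial reads were a small part of most kept cells and a large part of a few. The share of gene reads from the 15 genes ranged from 0.136% to 6.17% in GFP GC cells with a median of 0.509%, and from 0.135% to 23.5% in Ascl4 GC cells with a median of 0.568%. In GFP CA1 cells it ranged from 0.0325% to 17.4% with a median of 0.944%, and in Ascl4 CA1 cells from 0.0843% to 37.7% with a median of 0.809%. All 4 ranges overlapped over most of their length. A share above 1% was found in 13 of 47 GFP GC, 13 of 51 Ascl4 GC, 23 of 46 GFP CA1 and 17 of 45 Ascl4 CA1 cells. Above 10% lay 5 kept cells in all, namely Ascl4 GC cells WA117, WA118 and WA119, 1 GFP CA1 cell at 17.4% with 4712 genes, and Ascl4 CA1 cell WA228.

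**Figure D2:**
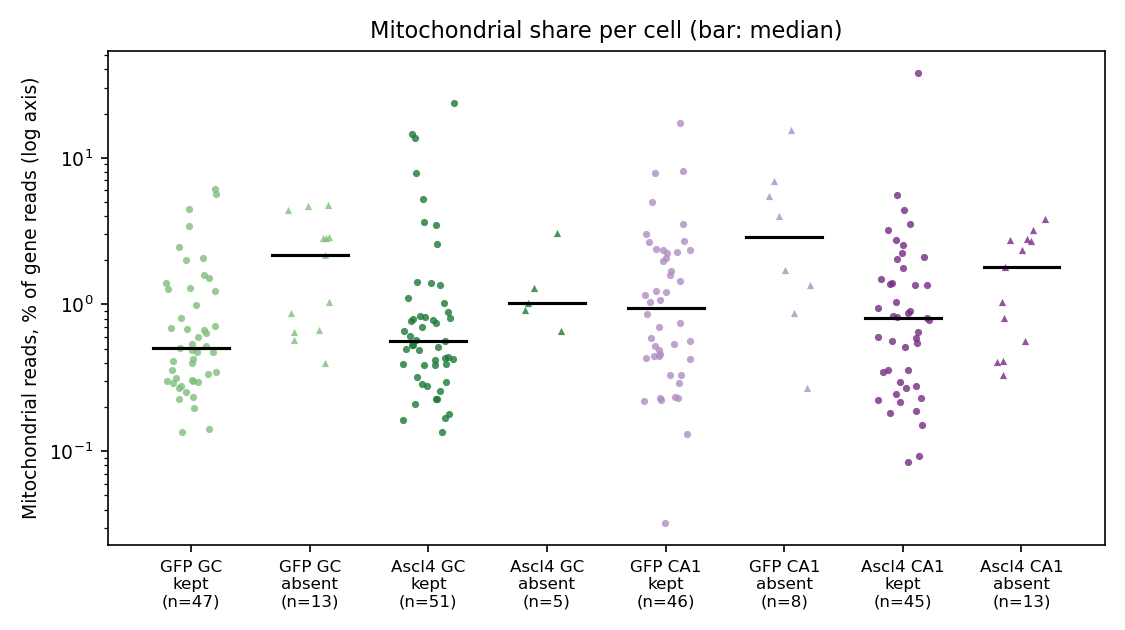
Mitochondrial reads as a percentage of gene reads in each cell (log axis), for kept cells (circles) and absent cells (triangles) of the 4 groups, with bars at the medians. Kept medians run from 0.509% in GFP GC to 0.944% in GFP CA1 cells, and absent medians from 1.03% in Ascl4 GC to 2.88% in GFP CA1 cells.

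Summing reads instead of taking medians gave other shares, because deep or extreme cells weigh more in a sum. The summed share was 0.904% in GFP GC (exact 95% binomial interval 0.902% to 0.905%), 1.79% in Ascl4 GC (1.791% to 1.794%), 1.54% in GFP CA1 (1.538% to 1.541%) and 1.38% in Ascl4 CA1 cells (1.378% to 1.381%). These Clopper-Pearson intervals cover counting error only, as no molecular identifiers are recorded in these files and reads need not be independent. Without the 5 cells of more than 12000 genes the summed share was 0.643% in Ascl4 GC and 0.960% in Ascl4 CA1 cells. Within a group the share went with total reads at rho between -0.30 and -0.13, and with the number of genes at rho between 0.07 and 0.22 (45 to 51 cells a group, which share their group's processing). With Ascl4 CPM, a part of the same total, the share had rho of -0.41 in Ascl4 GC and -0.22 in Ascl4 CA1 cells. Among kept cells under 2000000 reads the median share was 2.48% in 3 GFP GC, 0.787% in 5 Ascl4 GC, 5.33% in 4 GFP CA1 and 1.57% in 6 Ascl4 CA1 cells, each above the median of the deeper cells of its group (0.499%, 0.529%, 0.7996% and 0.647%).

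**Figure D3:**
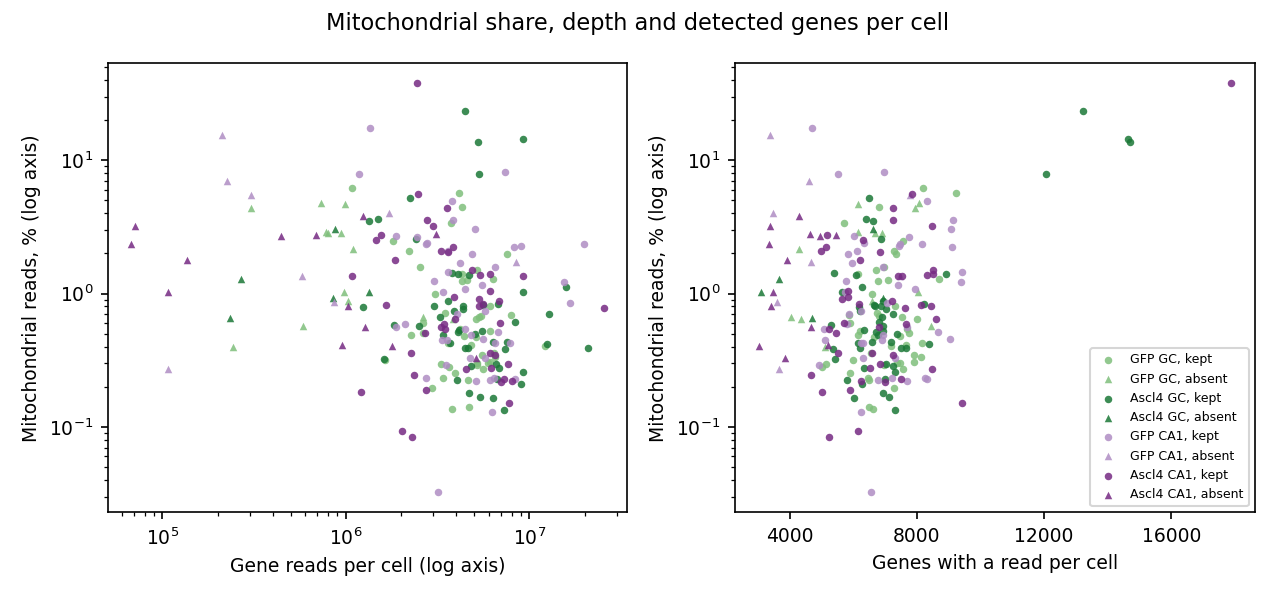
Mitochondrial share of each cell (percent, log axis) against its gene reads (left, log axis) and its number of genes with a read (right). The 5 kept cells beyond 12000 genes have shares between 7.83% and 37.7%. Of the 39 absent cells (triangles), 28 lie below the lowest kept cell in reads and 21 in genes, while others reach 8413883 reads or 8431 genes.

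The 5 cells of many genes lay outside the range of the other kept cells of their group in amount, but not in make-up. The highest share among those other cells was 5.21% in Ascl4 GC and 5.56% in Ascl4 CA1. Their shares were 14.4%, 23.5%, 13.7% and 7.83% in Ascl4 GC cells WA117 to WA120 and 37.7% in Ascl4 CA1 cell WA228. For all 15 genes, the percentage of the cell's mitochondrial reads lay within the range of the other kept cells of the group in each of the 5 cells. Those ranges were wide, with mt-Co1 from 0.0199% to 80.5% in kept Ascl4 GC cells, so lying within them says little. Between 9 and 13 of the 15 lay within the quartiles in the 4 Ascl4 GC cells, and 7 of the 15 did in Ascl4 CA1 cell WA228. In that cell mt-Cytb held 26.2%, mt-Co1 20.8% and mt-Nd1 20.7% of the mitochondrial reads.

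Complex III has a single mitochondrial subunit, mt-Cytb (chrM:14145-15288), and it was the leading gene in 33 of 47 GFP GC, 27 of 51 Ascl4 GC, 34 of 46 GFP CA1 and 29 of 45 Ascl4 CA1 kept cells. Its part of a cell's mitochondrial reads ranged from 0.582% to 53.1% with a median of 30.9% in GFP GC and from 0.625% to 64.8% with a median of 25.9% in Ascl4 GC cells. In GFP CA1 it ranged from 3.19% to 45.04% with a median of 29.8%, and in Ascl4 CA1 from 0.336% to 44.95% with a median of 29.1%. The groups overlapped throughout, and 4 cells outside GFP CA1 had less than 1% of their mitochondrial reads on this gene. The largest difference of group medians for any gene between Ascl4 GC and GFP GC cells was that of mt-Cytb, lower by 4.99 points in Ascl4 GC (a difference of -4.99), and -5.91 points without the cells of many genes.

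Complex IV, the oxidase that hands electrons to oxygen, was represented almost wholly by mt-Co1, its catalytic subunit (chrM:5328-6872). Its median part was 20.8% in GFP GC, 22.3% in Ascl4 GC, 19.9% in GFP CA1 and 21.3% in Ascl4 CA1 cells, and it led in 40 of all kept cells. Cells ranged from 0.0199% to 80.5%, both extremes being Ascl4 GC cells. Its partners mt-Co2 and mt-Co3 had median parts of 0.0267% to 0.0393% and 0.0728% to 0.134%. A read of mt-Co2 was present in 44 of 47, 49 of 51, 43 of 46 and 41 of 45 kept cells of GFP GC, Ascl4 GC, GFP CA1 and Ascl4 CA1, so these genes were low rather than missing.

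Complex I, which takes electrons from NADH, is built with 7 mitochondrial subunits, and together they held median parts of 35.96% in GFP GC, 37.6% in Ascl4 GC, 34.6% in GFP CA1 and 38.7% in Ascl4 CA1 cells. The subunit gene with the highest median part was mt-Nd1, a membrane subunit (chrM:2751-3707), with medians of 18.4%, 14.7%, 16.6% and 14.7% in the same order and a highest cell of 76.9% in GFP GC. It led in 13 of all kept cells. Medians of mt-Nd4 lay between 5.60% and 6.26% and those of mt-Nd2 between 3.71% and 5.52%. Both are membrane subunits of the proton-pumping arm.

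The other large proton-pumping subunit, mt-Nd5 (chrM:11742-13565), and its neighbour on the opposite strand, mt-Nd6 (chrM:13552-14070), varied together. Over the kept cells of a group, rho between their CPM was 0.89 in GFP GC, 0.81 in Ascl4 GC, 0.94 in GFP CA1 and 0.86 in Ascl4 CA1, and rho between their parts of the mitochondrial reads was 0.71, 0.50, 0.65 and 0.49. Part of any such relation in CPM comes with the cell's total mitochondrial share. Median parts of mt-Nd5 were 4.25%, 5.73%, 6.17% and 6.65%, and of mt-Nd6 1.18%, 1.91%, 1.68% and 1.95%. In a subset of cells mt-Nd5 was under 1% of the mitochondrial reads, namely 14 of 47 GFP GC, 9 of 51 Ascl4 GC, 4 of 46 GFP CA1 and 6 of 45 Ascl4 CA1 cells, and in 12, 7, 4 and 4 of them mt-Nd6 was under 1% as well. Each group was split into a run of lower and a run of higher title numbers. In Ascl4 CA1 the higher run joins separate stretches of numbers, with GFP CA1 numbers between them. By run of title numbers, cells with mt-Nd5 under 1% were 7 of 15 and 7 of 32 in GFP GC, 7 of 33 and 2 of 18 in Ascl4 GC, 0 of 15 and 4 of 31 in GFP CA1, and 1 of 17 and 5 of 28 in Ascl4 CA1.

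Small subunits of complex I gave the sparsest values. A read of mt-Nd3 (chrM:9459-9806) was found in 19 of 47 GFP GC, 31 of 51 Ascl4 GC, 28 of 46 GFP CA1 and 32 of 45 Ascl4 CA1 kept cells. After thinning every cell to 500000 reads the numbers were 13, 16, 22 and 24 cells. Its part of the mitochondrial reads had medians of 0 in GFP GC, 0.00663% in Ascl4 GC, 0.00426% in GFP CA1 and 0.0354% in Ascl4 CA1 cells, with a highest cell of 11.2% in the last group. For mt-Nd4l a read was present in 16, 19, 20 and 23 cells. The same Ascl4 CA1 cell, WA227, had the highest parts of both genes, with mt-Nd4l at 5.93%, and of mt-Co3 at 1.39%, 3 genes whose windows were matched at 97.99% or more.

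The ATP synthase genes mt-Atp6 and mt-Atp8 together made up medians of only 0.0578% to 0.0901% of the mitochondrial reads. Where mt-Atp8 had a read, the median ratio of mt-Atp6 to mt-Atp8 reads was 3.09 in GFP GC, 3.26 in Ascl4 GC, 3.33 in GFP CA1 and 2.87 in Ascl4 CA1 cells. Within groups rho between the CPM of both genes was between 0.88 and 0.96.

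Ribosomal RNA made up a median of 14.3% of the mitochondrial reads in GFP CA1 and 8.08% in GFP GC cells. The large-subunit RNA mt-Rnr2 (chrM:1094-2675) had median parts of 6.58% in GFP GC, 8.88% in Ascl4 GC, 11.1% in GFP CA1 and 9.05% in Ascl4 CA1 cells, and the small-subunit RNA mt-Rnr1 (chrM:70-1024) of 1.46%, 1.38%, 2.60% and 2.42%. Single cells reached 75.97% for mt-Rnr2 (an Ascl4 GC cell) and 37.3% for mt-Rnr1 (a GFP GC cell). The ratio of mt-Rnr2 to mt-Rnr1 reads, for RNAs that belong to 1 ribosome, had medians of 4.995, 5.24, 4.25 and 3.71, and ranged in GFP GC cells from 0.0804 to 154.3. Between cells, the part of mt-Rnr2 went against that of mt-Cytb, with rho of -0.38, -0.29, -0.54 and -0.36; parts of 1 total are bound to oppose each other to some degree.

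**Figure D4:**
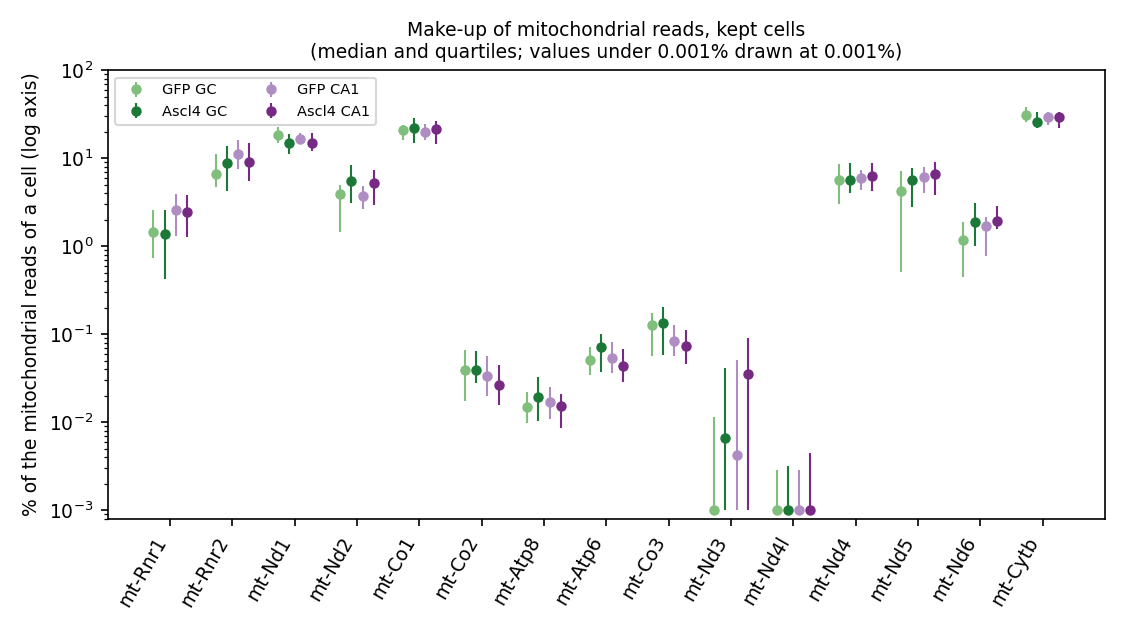
Part of each of the 15 genes in a kept cell's mitochondrial reads (percent, log axis), in genome order, as medians with quartiles for the 4 groups; values under 0.001% are drawn at 0.001%. Median parts of mt-Cytb lie between 25.9% and 30.9%, and those of mt-Co2 between 0.0267% and 0.0393%.

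The difference between Ascl4 GC and GFP GC cells asks whether mitochondrial reads differed after AAV-Ascl4 in granule cells. The median share was 0.568% against 0.509%, a log2 ratio of 0.16, and without the cells of many genes 0.528% against 0.509%, a log2 ratio of 0.053. In summed reads 10 of the 11 mitochondrial genes that passed the filter on low values were at least 1.5-fold higher in Ascl4 GC, and 0 were lower, where 25.6% of 9783 filtered genes were higher and 30.7% lower. Without the 4 cells of many genes 0 of 10 were higher and 2 were lower (background 25.8% and 31%). The count of higher genes therefore rested on those 4 cells. Among the 10, mt-Nd3 passed the filter only through Ascl4 GC, the group where it was higher.

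Single genes followed this pattern. Summed mt-Nd2 was 1073 CPM in Ascl4 GC against 395 CPM in GFP GC, a log2 ratio of 1.44 on the CPM + 1 scale used throughout, and 360 CPM without the 4 cells, a log2 ratio of -0.13. For mt-Cytb the levels were 5269 against 2872 CPM, and 1998 CPM without the 4 cells, so that the log2 ratio went from 0.88 to -0.52. The 2 genes at least 1.5-fold lower without them were mt-Rnr1, at 101.3 against 175.5 CPM, and mt-Co1, at 1297 against 2060 CPM. The exception was mt-Nd3, at 12.2 against 2.50 CPM and still at 6.57 CPM without the 4 cells, where its log2 ratio was 1.11 although it no longer passed the filter. Split by the runs of title numbers, 0 of 10 genes were higher and 1 lower in the run of lower numbers (background 38.7% and 33.9%), and 13 of 13 were higher and 0 lower in the run of higher numbers (background 27.1% and 38%), which holds all 4 cells. Of these 13, mt-Co2 (10.2 against 4.11 CPM), mt-Atp6 (12.4 against 5.63 CPM) and mt-Nd3 (22.5 against 3.16 CPM) passed the filter only through Ascl4 GC, so their place in the count was favoured by the filter.

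In CA1 the same question gave a median share of 0.809% in Ascl4 CA1 against 0.944% in GFP CA1 cells, a log2 ratio of -0.22, and -0.25 without cell WA228. The direction turned without the deepest 10% of cells (0.16) and as a mean over cells (0.078). Of 11 mitochondrial genes past the filter, 1 was at least 1.5-fold higher, mt-Nd3 at 21.6 against 5.38 CPM, and 1 was lower, mt-Rnr2 at 1079 against 1824 CPM, beside background shares of 24% and 24.3%. The only gene in the higher count, mt-Nd3, passed the filter only through Ascl4 CA1, the group where it was higher. With the authors' normalized signal 7 genes were lower. Cell WA228 alone gave 36.1% of the group's mt-Nd1 reads and 42.7% of its mt-Nd4 reads. Without it 1 gene was higher and 5 were lower, with mt-Rnr2 at 855 CPM, mt-Rnr1 at 248 against 415 CPM, mt-Co1 at 1944 against 3191 CPM, mt-Cytb at 2815 against 4638 CPM, and mt-Co3 at 9.15 against 15.1 CPM (background 24.2% higher and 24.2% lower).

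The 2 highest log2 ratios in CA1 were lower without another cell. Ascl4 CA1 cell WA227 held 2098 of the group's 4622 mt-Nd3 reads and 1113 of its 1391 mt-Nd4l reads. Leaving it out took mt-Nd3 from 21.6 to 11.97 CPM and its log2 ratio from 1.82 to 1.02. For mt-Nd4l, which did not pass the filter, the level went from 6.49 to 1.32 CPM and the log2 ratio from 2.39 to 0.69. Both stayed past 1.5-fold. In the run of lower title numbers 0 of 10 genes were higher and 6 were lower (background 37.4% and 30.7%). The other run joins separate stretches of title numbers in Ascl4 CA1, the last of which holds cells WA227 and WA228. In that run 4 of 13 were higher and 0 lower (background 26.6% and 30.6%). Of these 4, mt-Nd3 (34.97 against 5.79 CPM) and mt-Nd4l (11.5 against 0.497 CPM) passed the filter only through Ascl4 CA1.

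Between the control groups the mitochondrial share was higher in CA1 neurons. The median was 0.944% in GFP CA1 against 0.509% in GFP GC cells, a log2 ratio of 0.89, and the ratio was 1.11 in the cells of the lower title numbers (1.16% against 0.539%) and 0.62 in those of the higher numbers (0.744% against 0.483%). In summed reads 8 of the 10 mitochondrial genes past the filter were at least 1.5-fold higher in GFP CA1 and 0 were lower, where 30.5% of 9954 genes were higher and 27.1% lower. Within the runs 9 of 10 were higher and 0 lower (background 38.5% and 37.5%), and 3 of 10 higher and 0 lower (background 33% and 27.2%). No cell of either group had more than 12000 genes. Single cells still weighed on the count. GFP CA1 cell WA148 held 18.2% of the group's mt-Nd4, 17.8% of its mt-Cytb and 18.8% of its mt-Co1 reads. Without that cell their log2 ratios were 0.47, 0.45 and 0.37, under 1.5-fold. The other counted genes stayed past 1.5-fold without the cell that gave most of their reads, between 0.62 for mt-Nd2 and 1.26 for mt-Rnr2.

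With all kept cells summed, the 2 ribosomal RNAs had the highest log2 ratios. For mt-Rnr2 the summed level was 1824 CPM in GFP CA1 against 644 CPM in GFP GC (log2 ratio 1.501), and for mt-Rnr1 it was 415 against 175.5 CPM (1.24). Next came mt-Nd5 with 1017 against 496 CPM (1.03), mt-Nd6 with 268 against 140 CPM (0.93), mt-Nd2 with 664 against 395 CPM (0.75), mt-Nd4 with 980 against 595 CPM (0.72), mt-Cytb with 4638 against 2872 CPM (0.69) and mt-Co1 with 3191 against 2060 CPM (0.63). The genes past the filter that stayed under 1.5-fold were mt-Nd1 (0.53) and mt-Co3 (0.37). Of all 15 genes, the largest difference in median make-up was that of mt-Rnr2, higher by 4.49 points in GFP CA1. This order was not that of each run: within the lower title numbers mt-Rnr2 was at 1.903, mt-Nd5 at 1.85, mt-Cytb at 1.63 and mt-Rnr1 at 0.76, and the largest difference in make-up was that of mt-Nd1 (-4.03 points). Taking the messenger RNAs alone, the median share was 0.727% against 0.463%, a log2 ratio of 0.65.

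**Figure D5:**
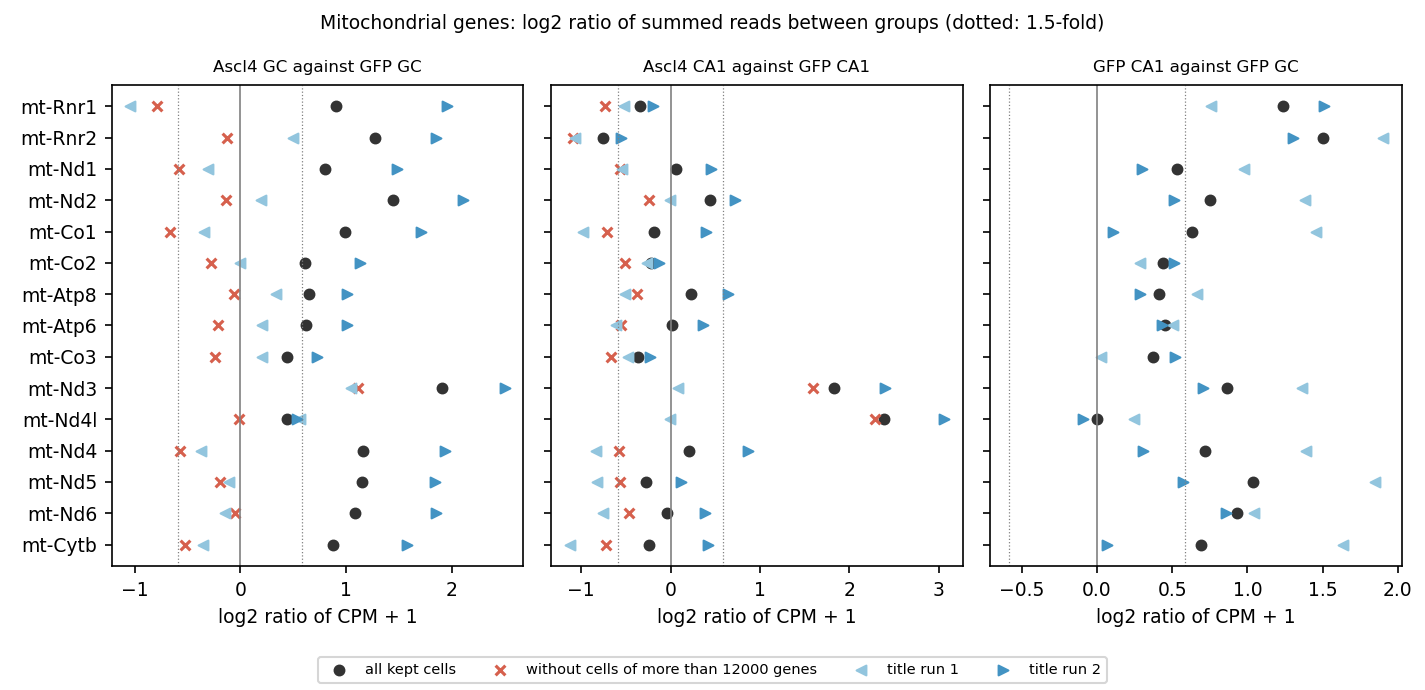
Log2 ratio of summed reads (CPM + 1) of each mitochondrial gene in the 3 comparisons, for all kept cells (black circles), without cells of more than 12000 genes (crosses) and within each run of title numbers (triangles); dotted lines mark 1.5-fold. In granule cells the black circles of 10 filtered genes lie right of the upper line and the crosses, other than that of mt-Nd3, do not, while in GFP CA1 against GFP GC all 15 black circles lie at or above 0.

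Markers of other cells moved with the share within groups. Summed CPM of 12 microglia markers, cells that are the immune cells of the brain, went with the mitochondrial share at rho of 0.24 in GFP GC, 0.22 in Ascl4 GC, 0.47 in GFP CA1 and 0.53 in Ascl4 CA1 cells, and that of 9 astrocyte markers at 0.26, 0.38, 0.47 and 0.21. Between groups, 11 of 11 filtered microglia markers were at least 1.5-fold higher in GFP CA1 than in GFP GC (all filtered genes 30.5%), 6 of 11 in Ascl4 GC than in GFP GC (25.6%), and 9 of 12 in Ascl4 CA1 than in GFP CA1 (24%), and 0 were lower. Of astrocyte markers 2 of 7 were higher and 2 lower, 3 of 8 higher and 3 lower, and 0 of 6 higher and 3 lower in the same comparisons. Some markers reached the 10 CPM of the filter only in the group where they were higher, which favoured their place in the counts. Such were Cx3cr1 in GFP CA1 (30.9 against 0.200 CPM in GFP GC) and in Ascl4 GC (11.9 CPM). Others were Tmem119 in Ascl4 CA1 (16.9 against 1.74 CPM) and the astrocyte marker Gja1 in GFP GC (11.8 against 0.208 CPM in GFP CA1). Such markers were not counted over the lists. The summed level of the microglia markers ranged from 0 to 15516 CPM in GFP GC (median 23.8), from 0.190 to 14302 CPM in Ascl4 GC (160.9), from 2.05 to 22826 CPM in GFP CA1 (777) and from 1.01 to 56303 CPM in Ascl4 CA1 cells (1023). None of these 12 markers was without a read in any of the groups. In the 5 cells of more than 12000 genes these markers summed to between 2784 and 9779 CPM. The marker counts for the Ascl4 groups include those cells and were not run without them. The part of these markers in the mitochondrial differences was not tested.

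Absent cells had higher median shares than kept cells of the same group. The share in absent GFP GC cells ranged from 0.397% to 4.74% with a median of 2.16%, against a kept median of 0.509%. The 5 absent Ascl4 GC cells had 0.657%, 0.922%, 1.03%, 1.29% and 3.06%, against 0.568%. In absent GFP CA1 cells the range was 0.270% to 15.5% and the median 2.88%, against 0.944%, and in absent Ascl4 CA1 cells it was 0.329% to 3.81% with a median of 1.79%, against 0.809%. The log2 ratios of the medians were 2.08, 0.85, 1.61 and 1.15. The ranges still overlapped, since 3 kept cells had a higher share than any absent cell and 32 kept cells a lower one.

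The absent cells were also low in total reads or in gene number. All 39 absent cells lay below the lowest kept cell in total reads (1077532) or in genes with a read (4673), 28 of them in reads and 21 in genes. The rules by which the authors chose cells were not given in the sources used here. These limits are the lowest values of the kept cells themselves. A rule on reads or genes would fix this outcome in advance, so it is not ranked against the mitochondrial share. Restricted to cells of at least 500000 reads, the log2 ratio of absent to kept medians was again 2.08 in GFP GC (11 absent cells) and 0.85 in Ascl4 GC (3 absent cells). In CA1 it was 0.71 in GFP CA1 (4 absent cells) and -0.24 in Ascl4 CA1 (8 absent cells), the latter with 0.684% against 0.809%. Every kept cell lies above 500000 reads, so this limit does not match depth. Under 2000000 reads the absent and kept medians were 2.84% (11 cells) and 2.48% (3 cells) in GFP GC. They were 1.03% (5 cells) and 0.787% (5 cells) in Ascl4 GC, and 4.03% (7 cells) and 5.33% (4 cells) in GFP CA1. In Ascl4 CA1 they were 1.79% (11 cells) and 1.57% (6 cells). In summed reads the absent share was 1.72% against 0.904% in GFP GC, 1.49% against 1.79% in Ascl4 GC, 2.38% against 1.54% in GFP CA1 and 1.34% against 1.38% in Ascl4 CA1 cells. For the Ascl4 groups the kept value became 0.643% and 0.960% without the cells of many genes.

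Gene by gene, the absent cells did not show 1 shared pattern. At least 1.5-fold higher in absent cells were 10 of 12 filtered mitochondrial genes in GFP GC (background 16.5% higher, 71.9% lower), 1 of 11 in Ascl4 GC (14.3% and 76.1%), 6 of 13 in GFP CA1 (17.5% and 76.1%) and 0 of 11 in Ascl4 CA1 (20.7% and 63.8%). Lower were 0, 4, 0 and 3. Some passed the filter only through the group where they were higher, namely mt-Co2 and mt-Atp6 in GFP GC and mt-Co2 and mt-Nd3 in GFP CA1 (all in absent cells), and mt-Nd3 in Ascl4 GC and Ascl4 CA1 (in kept cells). Most filtered genes of any kind were lower in the absent cells, with median log2 ratios of -2.03, -3.62, -4.25 and -2.74. In GFP GC the largest log2 ratio was that of mt-Rnr1, 922 CPM in absent against 175.5 CPM in kept cells (2.39). In absent cells of CA1 the 2 ribosomal RNAs made up more of the mitochondrial reads, with medians of 26.5% against 14.3% in GFP CA1 and 19.02% against 12.6% in Ascl4 CA1, while in GFP GC they were 10.8% against 8.08% and in Ascl4 GC 5.06% against 10.2%.

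The respiratory complexes also need nuclear genes. Of 76 nuclear subunit genes, 75 passed the filter in each comparison. In Ascl4 GC against GFP GC 7 of 36 complex I genes were at least 1.5-fold higher and 1 lower, where 25.6% and 30.7% of all filtered genes were, with Ndufa9, an accessory subunit, at 313 against 76.2 CPM, and 3 of 15 complex V genes were higher and 0 lower, with the catalytic subunit gene Atp5b at 2664 against 1491 CPM. Complex III had 2 of 9 higher and complex IV 1 of 11 lower (Cox7c at 34.9 against 59.4 CPM). In Ascl4 CA1 against GFP CA1 0 of 36 complex I genes were higher and 4 lower (all filtered genes 24% and 24.3%), with Ndufs1, a core subunit, at 155.1 against 317 CPM, and of the 39 other subunit genes 1 was higher and 1 lower. Median log2 ratios of the 4 larger complexes lay between -0.05 and 0.16 in granule cells and between -0.14 and -0.09 in CA1, beside -0.08 and -0.02 over all filtered genes.

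In GFP CA1 against GFP GC few of these nuclear subunit genes passed the 1.5-fold line. Of complex I, 7 of 36 genes were at least 1.5-fold higher and 3 lower, where 30.5% and 27.1% of all filtered genes were, 1 of 15 in complex V was higher, 1 of 4 in complex II was lower (Sdha at 291 against 472 CPM), and none of complexes III and IV passed that line. Summed over all nuclear subunit genes, the median cell had 19508 CPM in GFP CA1 and 19750 CPM in GFP GC, while the mitochondrial median share was higher in GFP CA1. Over the cells of a group, rho between the mitochondrial share and the nuclear sum was 0.27 in GFP GC, 0.39 in Ascl4 GC, 0.22 in GFP CA1 and 0.19 in Ascl4 CA1.

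Genes that copy and read mitochondrial DNA passed the 1.5-fold line in both directions. Of 13 filtered genes for its transcription and replication in Ascl4 GC against GFP GC, 2 were higher and 8 lower (all filtered genes 25.6% and 30.7%), with a median log2 ratio of -0.68 against -0.08 over all genes. Among them were Polg, the mitochondrial DNA polymerase, at 8.1 against 54.9 CPM, and Tefm, an elongation factor, at 6.0 against 25.6 CPM. In Ascl4 CA1 against GFP CA1 5 of 14 were higher and 6 lower (24% and 24.3%), with Tefm at 6.8 against 50.02 CPM and Mgme1, a nuclease, at 15.4 against 2.3 CPM. In GFP CA1 against GFP GC 8 of 15 were higher and 7 lower (30.5% and 27.1%), with Twnk, the helicase, at 32.95 against 5.1 CPM. Each gene named here reached the 10 CPM of the filter only in the group where it was higher. Its place in the counts was favoured by the filter, and such genes were not counted over the whole list.

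Genes that process mitochondrial RNA or build its ribosome, and those that regulate the organelle, likewise passed the line in both directions. Over all filtered genes the shares higher and lower were 25.6% and 30.7% in Ascl4 GC against GFP GC, 24% and 24.3% in Ascl4 CA1 against GFP CA1, and 30.5% and 27.1% in GFP CA1 against GFP GC. For RNA processing and turnover the counts were 3 higher and 11 lower of 21 in Ascl4 GC, 3 and 6 of 22 in Ascl4 CA1 and 7 and 5 of 22 in GFP CA1. The 4 largest log2 ratios of this list in Ascl4 GC against GFP GC were those of Fastkd3 (-2.96), Mtpap, the mitochondrial poly(A) polymerase (2.88), Trmt10c, a subunit of mitochondrial RNase P (-2.42), and Supv3l1, a helicase of RNA turnover (-2.39). For the 76 filtered mitochondrial ribosomal protein genes they were 26 and 16, 9 and 14, and 17 and 13. Among regulators of mitochondrial biogenesis 1 of 8 was higher and 4 lower in Ascl4 GC, 1 of 6 and 3 in Ascl4 CA1, and 5 of 8 and 0 in GFP CA1 against GFP GC, where Ppargc1a, a coactivator of such genes, was at 27.5 against 3.9 CPM and Nrf1, a transcription factor for them, at 103.5 against 32.5 CPM. Among stress and quality control genes 5 of 21 were higher and 5 lower in Ascl4 GC, 4 and 4 of 21 in Ascl4 CA1, and 8 and 5 of 21 in GFP CA1. In the comparisons given, Fastkd3, Trmt10c and Supv3l1 reached the 10 CPM of the filter only in GFP GC, and Ppargc1a only in GFP CA1. Their place in the counts was favoured by the filter, and such genes were not counted over the whole lists.

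The genes whose CPM followed the mitochondrial share most closely were taken by the mean of the within-group rho over the 4 groups, among 2855 genes detected in enough cells to be compared. CT010467.1, annotated as a ribosomal RNA gene, had rho of 0.34, 0.66, 0.79 and 0.71 in GFP GC, Ascl4 GC, GFP CA1 and Ascl4 CA1. Lars2, the mitochondrial leucyl-tRNA synthetase, had 0.38, 0.66, 0.77 and 0.68. After them came Cst3, a secreted protease inhibitor (mean 0.54), Ndrg2 (0.47) and Glul, glutamine synthetase (0.45), genes that are abundant in glial cells. At the opposite end were Egr4 (mean -0.40), Egr1 (-0.40) and Junb (-0.37), transcription factors of the immediate early response, and Maged1 (-0.31) and Cpne6 (-0.31). Each of these 10 genes had the sign of its mean in all 4 groups, which choosing genes by that mean favours. The points share library and total, so these values are a description.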

How the data were processed

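Per the submitters' processing notes, the tools applied to the reads of single patched neurons included HTSeq and STAR, with genome build GRCm38.p4, while versions, settings, read length and quality-control rules were not given in the sources used here. In all, the authors deposited read counts per gene for 228 cells, the same counts for 189 cells, and a normalized signal for those 189, in which the authors divided each cell's counts by 1 factor (coefficient of variation of signal to count within a cell at most 2.6e-16). Totals exclude the 92 spike-in rows, which held 5 reads. No column was left unmapped (0).

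The share was the percentage of a cell's gene reads from the 15 mitochondrial rows. Between groups, reads were summed over cells, scaled to 1000000 (CPM) and compared as log2 ratios with a pseudocount of 1. Genes passed the filter with a read in at least 25% of the cells of 1 group and at least 10 CPM in 1 group, and 1.5-fold was the line for a count; no test was run. The members, lists and rules were chosen with earlier results of these data known; leaving out a single cell, or cells of more than 12000 genes from gene counts, make-up, and summed or mean shares, was chosen after seeing the data. All 13 protein-coding and 2 ribosomal RNA genes are named, up to 4 genes of each nuclear list by size of the log2 ratio, nuclear copies from 10 CPM, and the 5 highest and 5 lowest genes by rho. The 2 copies with rows in the table are named although they were chosen after their values were seen.

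Sequences came from GENCODE M21 transcripts (GRCm38). Windows of 50 bases were matched exactly on either strand, and those of 30, 75 and 100 bases in the same way. Code was tested on simulated data. Scaling factors came from DESeq2 1.42.0 and edgeR 4.0.16 in R 4.3.3, and all else from scipy 1.17.1, pandas 2.3.3, numpy 2.4.6, biopython 1.88 and matplotlib 3.10.9 under Python 3.11.15.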

Additional observations from a re-analysis of the deposited data

Results flagged for a closer look

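Among the absent cells, a single cell lay far above the others of its group in 2 groups. The highest of the 5 absent Ascl4 GC cells had a mitochondrial share of 3.06%, and the next had 1.29%. The highest of the 8 absent GFP CA1 cells had 15.5%, and the next had 6.95%. The gap was measured against the group's whole range on the percent scale, by a rule that picks out about 1 in 20 groups by chance where values follow a normal distribution, which these skewed shares do not. On a log scale the gap was 0.561 and 0.198 of the range, and neither cell would be picked out.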

How the results depend on the processing

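No paired analysis was possible because title numbers are unique to each cell and no test was run. With 1 sample a group, all values below describe these cells. The cause of each shift was not tested. The log2 ratio of mitochondrial shares in Ascl4 GC against GFP GC (0.16) was 0.99 in summed reads, 0.89 as a mean over cells, -0.022 with absent cells included, 0.094 for the 13 protein-coding genes, -0.11 and 0.78 within the lower and higher title numbers, 0.088 without the deepest 10% of cells, 0.053 without cells of more than 12000 genes, 0.23 with Ascl4 and CT010467.1 out of the total, and -0.49 in summed reads without cells of more than 12000 genes. In the same order, Ascl4 CA1 against GFP CA1 (-0.22) gave -0.16, 0.078, -0.43, -0.10, -0.30, -0.42, 0.16, -0.25, -0.21 and -0.68. For GFP CA1 against GFP GC (0.89) the ratio was 0.77, 0.84, 0.80, 0.65, 1.11, 0.62, 0.52 and, with Ascl4 and CT010467.1 out, 0.90. It stayed above 0 in every setting run for that comparison, while each Ascl4 comparison took both signs.

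Absent against kept cells gave 2.08 in GFP GC, and 0.93 in summed reads, 1.08 as a mean and 1.89 for protein-coding genes. In GFP CA1 (1.61) these were 0.63, 1.28 and 1.59, and 0.71 from 500000 reads. In Ascl4 GC (0.85) they were -0.26, -0.48 and 1.04, and without cells of more than 12000 genes 1.21 summed and 0.73 as a mean. In Ascl4 CA1 (1.15) they were -0.037, -0.16 and 0.65, -0.24 from 500000 reads, and without the 1 cell of more than 12000 genes 0.49 summed and 0.60 as a mean.

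Of the counts of mitochondrial genes past 1.5-fold, the 10 higher in Ascl4 GC became 0 within the lower title numbers and 0 without cells of more than 12000 genes, and the 0 lower became 1 and 2. In Ascl4 CA1 the 1 higher became 2 without a filter, 2 with the mean of per-cell CPM, 0 and 4 within the lower and higher title numbers. The 1 lower became 7 with the deposited normalized signal, 0 with the mean of per-cell CPM, 6 and 0 within the lower and higher numbers, and 5 without cells of more than 12000 genes. The 8 higher in GFP CA1 became 3 within the higher numbers. TMM and DESeq2 scaling moved none of these counts by over 1.5 times.

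The largest difference in median make-up for Ascl4 GC (mt-Cytb, -4.99 points) was -2.38 in summed reads, -5.39 with absent cells, -5.05 and -6.43 within title numbers, -6.87 of protein-coding reads and -5.91 without cells of more than 12000 genes. In the same order, for Ascl4 CA1 (mt-Rnr2, -2.02) it was -4.03, -2.28, mt-Co1 at -2.49 and 5.33, mt-Nd1 at -2.05 and mt-Co1 at 1.98. For GFP CA1 against GFP GC (mt-Rnr2, 4.49) it was 4.72, 4.91, mt-Nd1 at -4.03, mt-Rnr2 at 7.23 and mt-Nd5 at 2.72.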
